A study of Homo sapiens with 18 samples.

Results

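The comparison set 3 cultures in high-glucose medium with 5 mM 2-deoxyglucose (2-DG) against 3 cultures in glucose-deprived medium, all without the neuropeptide CGRP, to find which responses a blocker of glycolysis and a true loss of glucose do not share. These 6 libraries are 6 of the 18 in the series and were chosen by their labels. The cells were Cal27, an established human line of oral squamous cell carcinoma from the tongue, so every statement rests on 1 line, kept in the medium for 24 hours. The 2-DG group was grown in high-glucose DMEM to which 2-DG was added at 5 mM, the deprived group had DMEM without glucose and no 2-DG, and 3 cultures in high-glucose DMEM without 2-DG served as a common reference. All 9 had what the series text calls the control medium, coded capTG, in place of 10 nM recombinant human CGRP, coded TG. Whether the control medium was conditioned is not settled, because the culture notes mention CM without explaining it. The repetitions are described as biologically independent. Whether a lower level in these bulk samples came from fewer cells with the RNA or from less RNA per cell cannot be told apart.

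2-DG is a glucose analogue that cells import and phosphorylate but cannot carry through glycolysis, so it slows the pathway while glucose is still present. It also resembles mannose and is built into the lipid-linked sugar chains from which N-glycans are made, which leaves proteins in the endoplasmic reticulum (ER) poorly glycosylated. Glucose deprivation takes away the carbon for glycolysis, for N-glycan precursors and for serine synthesis alike. Misfolded proteins in the ER set off the unfolded protein response (UPR), in which the sensors IRE1, PERK and ATF6 raise chaperones, and PERK feeds into the integrated stress response (ISR) through ATF4. Glucose-6-phosphate, and 2-DG-6-phosphate with it, activates the transcription factor MondoA, whose best known target is TXNIP.

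Library totals lay between 28.04M and 32.66M counts. On the first principal component (68.7% of the variance) the deprived libraries lay apart from all others. The 3 deprived control libraries lay close together on the second component (7.39%). The library 2-DG control 2 stood apart there at 34.6, where its group mates lay at -14.8 and -9.78. Its deviation from its mates correlated with log transcript length across genes (Spearman rho = -0.44). The fold changes of the comparison hardly did (Spearman rho = -0.020, across genes, which are not independent). For 2-DG against deprivation, counts of list members that leaving out 2-DG control 2 moves by over 1.5 times are given without it. List counts against high glucose and with CGRP are given with all libraries only. Replicate pairs differed by more than sampling noise, and no library was a repeat of another. All 11 squamous epithelium markers had enough counts to be tested. Their summed level was 5173 to 5839 CPM (library-scaled counts) with 2-DG and 4318 to 4449 CPM with deprivation. In high glucose it was 5458 to 5587 CPM. The single markers split: with 2-DG relative to deprivation 6 rose, 4 fell and 1 did not pass (log2 fold changes from -2.0 to 1.8). Several marker lists of other cell types held counts. Of 6 endothelial markers 2 were tested, and CDH5 and VWF rose (3.43 ± 0.11 and 3.47 ± 0.33). The summed level of the list was 21.4 to 25.2 CPM with 2-DG, 1.86 to 2.70 CPM with deprivation and 24.4 to 25.2 CPM in high glucose. Of its untested markers, KDR had 0 counts in all 9 libraries, and PECAM1, TEK and CLDN5 had 1 to 10 counts in each group. Of 9 fibroblast markers 4 were tested and all 4 rose, with sums of 18.2 to 19.7, 10.7 to 11.7 and 25.4 to 27.1 CPM in the same order. Of the untested ones, DCN had 0 counts in both groups compared, and COL3A1, PDGFRA, THY1 and FAP had 0 to 7 counts in each group. Schwann cell markers (3 of 6 tested) summed to 74.8 to 90.4, 82.9 to 86.6 and 92.5 to 99.4 CPM, neuron markers (6 of 8) to 15.8 to 17.5, 11.6 to 12.8 and 13.2 to 13.7 CPM, and leukocyte markers (4 of 8) to 9.99 to 12.2, 7.90 to 8.41 and 10.2 to 11.1 CPM. The part of these markers in the results was not tested.

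Of 18159 genes tested, 5256 were higher (28.9%) and 5191 lower (28.6%) with 2-DG than with deprivation (edgeR quasi-likelihood test, Benjamini-Hochberg adjusted p under 0.05 over all genes). At least 2-fold higher were 1994 genes (11.0%), and at least 2-fold lower were 1393 (7.67%). The median log2 fold change of all genes was -0.0042. Fold changes below are log2 values of 2-DG over deprived ± SE unless another comparison is named, and "rose" and "fell" say what 2-DG cultures did relative to deprived cultures. Because so many genes passed, shares of a gene list are to be read against these percentages.

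The high-glucose cultures show where each medium stood. Against them, 2-DG raised 1451 genes (7.99%) and lowered 1062 (5.85%), and deprivation raised 5633 (31.0%) and lowered 5378 (29.6%). The median size of a log2 change was 0.17 with 2-DG and 0.47 with deprivation. The 2513 genes called with 2-DG became 6002 when both libraries that stand apart (2-DG control 2 and a deprived CGRP library) were left out. These comparisons share the high-glucose cultures, so their values are given side by side and no overlap is read from them. The plot of list medians shows all 41 gene lists in this way.

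**Figure D1:**
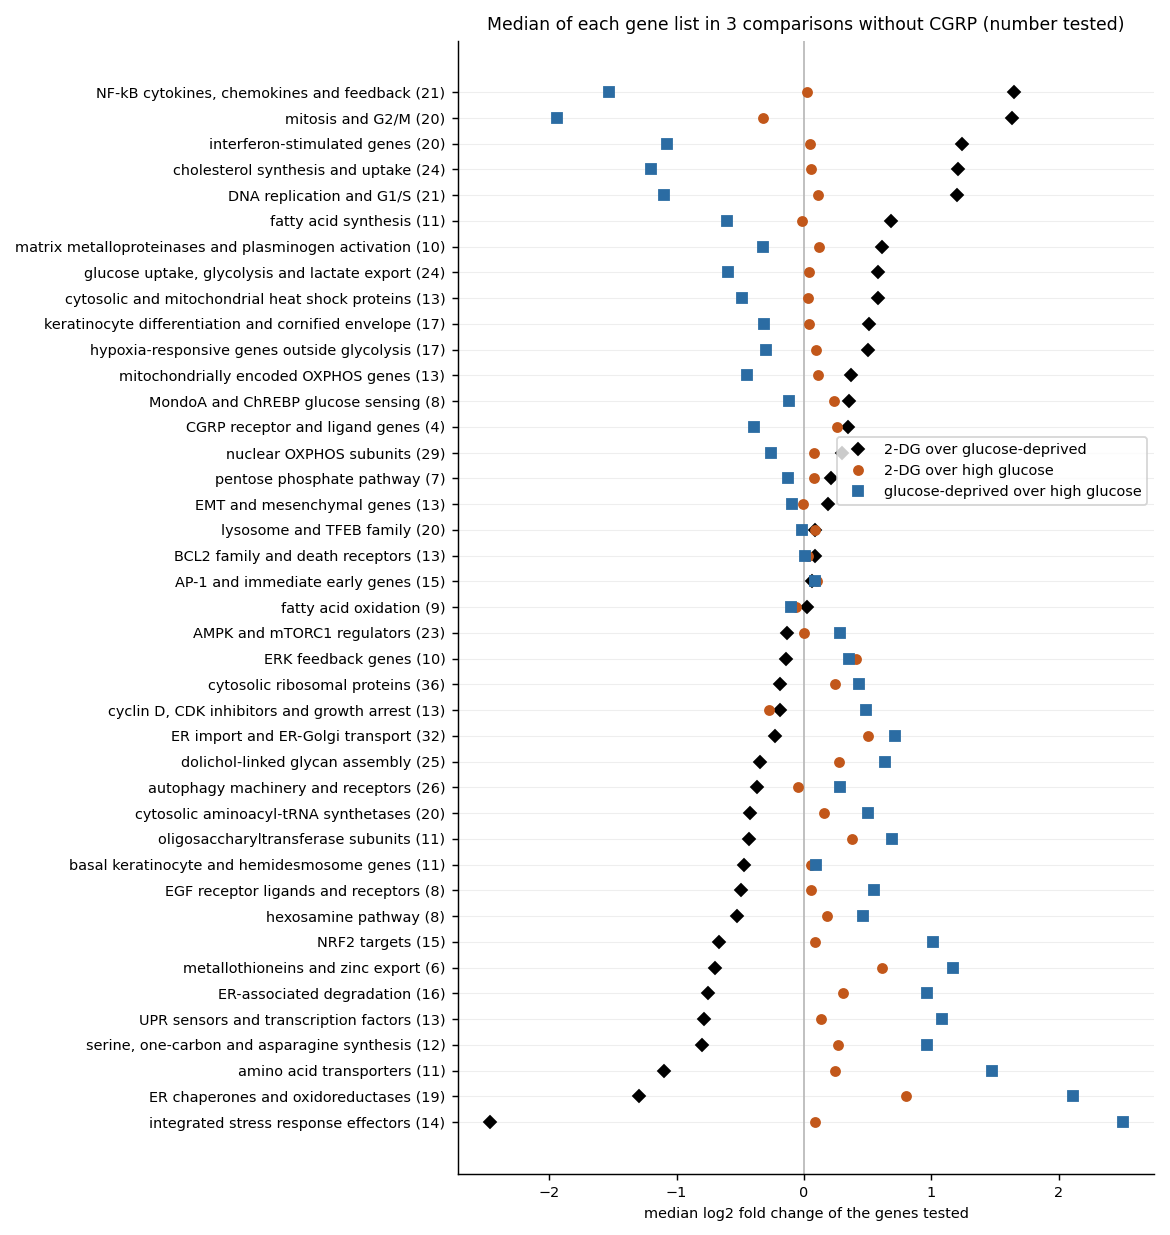
Median log2 fold change (x axis) of the tested genes of each of 41 gene lists (y axis, number tested in parentheses) for 2-DG over glucose-deprived, 2-DG over high glucose and glucose-deprived over high glucose, all without CGRP. The 2-DG medians against high glucose lie between -0.32 and 0.80, and the deprivation medians between -1.94 and 2.50.

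The glucose-sensing arrestin genes TXNIP and ARRDC4 were far higher with 2-DG than with deprivation. TXNIP, an arrestin-like protein that curbs glucose uptake and binds thioredoxin (ENSG00000265972), had 735, 663 and 716 CPM with 2-DG, 13.2, 13.3 and 13.7 CPM with deprivation and 585, 542 and 595 CPM in high glucose. Its level with 2-DG was above high glucose in every library, and with deprivation it was at a small part of either. The log2 fold change was 5.71 ± 0.07 (adjusted p = 1.7e-17). ARRDC4, a related arrestin that also limits glucose uptake (ENSG00000140450), had 68.0, 63.4 and 66.9 CPM with 2-DG, 7.08, 7.62 and 7.99 CPM with deprivation and 37.3, 37.5 and 38.2 CPM in high glucose. It rose by 3.13 ± 0.07 (adjusted p = 7.7e-15), and no libraries of different groups overlapped. Against high glucose both genes moved in opposite directions, TXNIP by 0.30 ± 0.06 with 2-DG and -5.42 ± 0.07 with deprivation, and ARRDC4 by 0.81 ± 0.06 and -2.32 ± 0.07 in the same order.

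Of the 8 genes of the glucose-sensing list, 4 rose, 2 fell and 2 did not pass (median 0.36). KLF10, a zinc finger repressor induced by glucose in several tissues, rose by 1.33 ± 0.05, and ARRDC3, an arrestin of receptor trafficking, by 0.71 ± 0.08. The lower genes were MLXIPL, which encodes the MondoA relative ChREBP, at -1.76 ± 0.23, and MLX, the shared partner of both factors, at -0.14 ± 0.05. The list had 1 lower gene, not 2, with RLE or total-count scaling, with DESeq2, with either other filter, in a fit of only the groups compared, and without any of the 6 libraries but 2-DG control 2. MLXIP, the gene of MondoA itself, was at -0.15 ± 0.11 and did not pass.

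The promoter of ARRDC4 is shown because it holds CACGTG, the core of the sites that MondoA and ChREBP bind. The window runs from 250 bases before to 50 after the RefSeq start (GRCh38.p14, chr15:97960453-97960752, plus strand), and capitals mark the motif.
ARRDC4: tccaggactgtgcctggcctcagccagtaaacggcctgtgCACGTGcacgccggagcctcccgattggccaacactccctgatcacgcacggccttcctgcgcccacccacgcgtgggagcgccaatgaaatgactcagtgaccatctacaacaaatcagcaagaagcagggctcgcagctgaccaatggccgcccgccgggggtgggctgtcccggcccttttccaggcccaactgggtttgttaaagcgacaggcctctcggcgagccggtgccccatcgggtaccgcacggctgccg
The motif was searched on both strands and, being its own reverse complement, matches on both. It stands in the window of 2396 of 27305 genes (8.77%) and of 2 of the 7 glucose-sensing genes with a window in the table, ARRDC4 and MLX. The windows of TXNIP hold no exact CACGTG. A match is a description of the sequence, and binding was not measured.

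**Figure D2:**
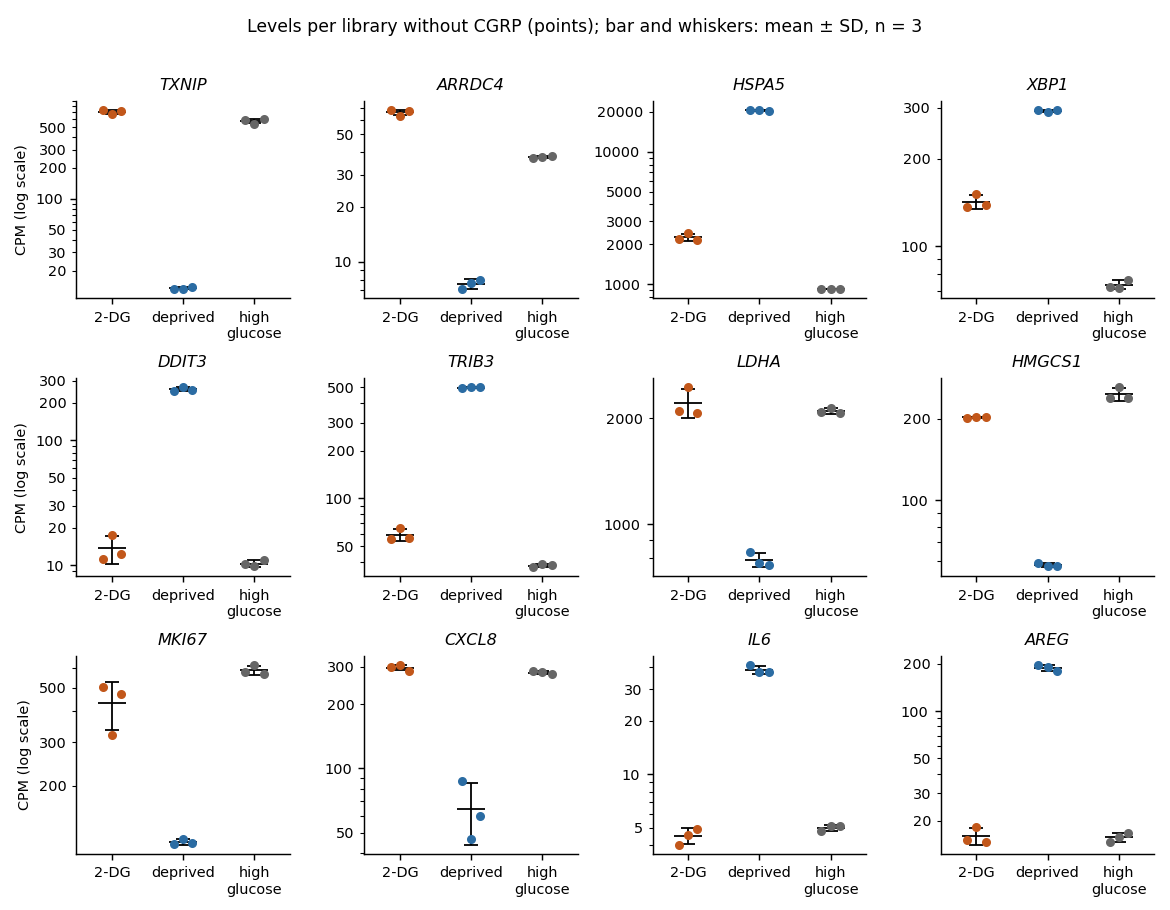
Level of 12 genes in each library without CGRP, in CPM on a log scale (y axis), by medium (x axis). Points are the 3 libraries, the bar is their mean and the whiskers their SD. In all 12 panels the deprived libraries overlap with neither of the other media, below them for TXNIP and above them for HSPA5.

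Most genes of glycolysis were higher with 2-DG than with deprivation. Of 24 genes for glucose uptake, glycolysis and lactate export, 17 rose, 5 fell and 2 did not pass (median 0.58). Against high glucose, 1 rose and 1 fell with 2-DG (median 0.04), and 6 rose and 16 fell with deprivation (median -0.60). LDHA, which makes lactate (ENSG00000134333), had 2101, 2450.0 and 2074 CPM with 2-DG, 834, 778 and 766 CPM with deprivation and 2081, 2142 and 2072 CPM in high glucose, a log2 fold change of 1.48 ± 0.08 (adjusted p = 2.0e-10). The deprived libraries were lower than all others, and those of the other media overlapped. The aldolase ALDOC rose by 1.79 ± 0.08, the pyruvate kinase PKM by 0.99 ± 0.06, the phosphoglycerate kinase PGK1 by 1.12 ± 0.07 and the transporter SLC2A6 by 1.12 ± 0.05. ALDOA also passed, but 42.3% of its exon bases are shared with another gene on the same strand in GENCODE 29, so its counts are uncertain.

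The entry steps of the pathway went the other way. HK2, the inducible hexokinase that phosphorylates glucose and 2-DG alike, had 146, 120.2 and 140.2 CPM with 2-DG, 307, 289 and 279 CPM with deprivation and 151, 143 and 141 CPM in high glucose, and fell by 1.11 ± 0.15 (adjusted p = 9.6e-06) on the log2 scale. SLC2A1, the main glucose transporter GLUT1, had 353, 341 and 333 CPM with 2-DG, 592, 549 and 553 CPM with deprivation and 332, 307 and 318 CPM in high glucose (-0.72 ± 0.08, adjusted p = 4.8e-07). For HK2 the 2-DG libraries overlapped with high glucose, for SLC2A1 they lay just above it, and for both they lay below every deprived library. The lactate carrier SLC16A1 (-0.58 ± 0.04) and the regulatory enzymes PFKFB2 (-0.96 ± 0.16) and PFKFB4 (-0.38 ± 0.09) fell too.

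Most genes that respond to hypoxia were higher with 2-DG. Of 17 such genes outside glycolysis, 11 rose, 3 fell and 3 did not pass (median 0.50). CA9, a carbonic anhydrase of hypoxic tumours, had 49.5, 55.9 and 44.7 CPM with 2-DG, 11.5, 11.1 and 10.4 CPM with deprivation and 47.8, 42.2 and 46.0 CPM in high glucose (2.18 ± 0.11, adjusted p = 5.2e-11). The exons of CA9 share 38.5% of their bases with ARHGEF39 on the opposite strand, and the strand setting of the counts is not known. EGLN3, an oxygen-sensing hydroxylase, rose by 1.43 ± 0.09 and LOX, which crosslinks collagen, by 1.12 ± 0.09. VEGFA, the angiogenic factor that HIF and ATF4 both raise, had 441, 364 and 436 CPM with 2-DG, 1169, 1149 and 1201 CPM with deprivation and 283, 272 and 276 CPM in high glucose. It was above high glucose in both media and fell with 2-DG relative to deprivation (-1.50 ± 0.10, adjusted p = 1.5e-09).

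Most genes that make and attach N-glycans were lower with 2-DG than with deprivation. Of 25 genes for the assembly of dolichol-linked glycans, 2 rose, 17 fell and 6 did not pass (median -0.34). Against high glucose, 14 rose and 0 fell with 2-DG (median 0.28), and 20 rose and 1 fell with deprivation (median 0.63). The mannosyltransferase genes ALG12 (-0.95 ± 0.05) and ALG2 (-0.66 ± 0.05), DPAGT1, whose enzyme starts the chain (-0.63 ± 0.05), and GMPPB, which makes GDP-mannose (-1.01 ± 0.07), had the smallest p. Without both libraries that stand apart 4 genes of the list rose. Of 11 subunits of oligosaccharyltransferase, the enzyme that moves the finished chain onto proteins, 2 rose, 7 fell and 2 did not pass (median -0.43). Its catalytic subunit STT3A was at -0.73 ± 0.05 and the accessory subunit MAGT1 at -0.87 ± 0.06. Against high glucose, 7 rose and 0 fell with 2-DG (median 0.38), and 7 rose and 1 fell with deprivation (median 0.69).

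In the hexosamine pathway, which supplies UDP-GlcNAc for glycans, 1 rose, 5 fell and 2 did not pass of 8 genes (median -0.53). The paralogous rate-limiting enzymes diverged: GFPT2 rose by 2.00 ± 0.07, and GFPT1 fell (-1.20 ± 0.08). Against high glucose GFPT1 was at 0.62 ± 0.08 with 2-DG and 1.82 ± 0.08 with deprivation, while GFPT2 was at -0.04 ± 0.07, which did not pass, and -2.04 ± 0.07. UAP1, which forms UDP-GlcNAc, fell (-0.96 ± 0.06), as did OGT, which attaches single GlcNAc residues to nuclear and cytosolic proteins (-1.02 ± 0.16).

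ER chaperones were raised by both media, and far more by deprivation. All 19 chaperones and oxidoreductases of the list fell with 2-DG relative to deprivation (median -1.30), 12 of them at least 2-fold. Against high glucose, 18 rose and 0 fell with 2-DG (median 0.80), and 19 rose and 0 fell with deprivation (median 2.11). HSPA5, the main chaperone BiP (ENSG00000044574), had 2201, 2437 and 2164 CPM with 2-DG, 20564, 20837 and 20386 CPM with deprivation and 926, 918 and 924 CPM in high glucose. The 3 groups do not overlap, and the fold change was -3.18 ± 0.08 (adjusted p = 1.7e-14). HSPA5 took 0.219% to 0.237% of all counts in 2-DG libraries, 1.91% to 1.95% in deprived libraries and 0.0950% to 0.0969% in high-glucose libraries. HSP90B1, the ER form of HSP90, had 1865, 2254 and 1881 CPM with 2-DG, 6186, 6203 and 6119 CPM with deprivation and 941, 966 and 967 CPM in high glucose (-1.63 ± 0.10, adjusted p = 1.3e-09). DNAJB9, a cofactor of BiP, had 26.1, 26.1 and 26.6 CPM with 2-DG, 98.0, 91.3 and 95.6 CPM with deprivation and 12.9, 12.9 and 12.5 CPM in high glucose (-1.85 ± 0.06, adjusted p = 2.2e-13). The oxidoreductase PDIA4 (-1.52 ± 0.04) and HYOU1, an exchange factor of BiP (-1.88 ± 0.08), were among the 4 with the smallest p. The smallest differences were those of PDIA5 (-0.28 ± 0.06) and P4HB (-0.35 ± 0.07).

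The promoters of HSPA5 and HSP90B1 are shown because they hold the ER stress response element, to which ATF6 and XBP1 bind with NF-Y. The element was searched on both strands as CCAAT, 9 free bases and CCACG, and capitals mark its fixed bases. The windows run from 250 bases before to 50 after the RefSeq start (GRCh38.p14), at chr9:125241294-125241593, minus strand for HSPA5 and chr12:103930160-103930459, plus strand for HSP90B1.
HSPA5: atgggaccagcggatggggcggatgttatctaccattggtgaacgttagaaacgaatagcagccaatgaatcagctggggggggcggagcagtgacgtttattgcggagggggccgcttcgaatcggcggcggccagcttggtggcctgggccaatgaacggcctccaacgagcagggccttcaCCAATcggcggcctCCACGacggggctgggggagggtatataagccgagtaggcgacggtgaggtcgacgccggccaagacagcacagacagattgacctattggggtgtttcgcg
HSP90B1: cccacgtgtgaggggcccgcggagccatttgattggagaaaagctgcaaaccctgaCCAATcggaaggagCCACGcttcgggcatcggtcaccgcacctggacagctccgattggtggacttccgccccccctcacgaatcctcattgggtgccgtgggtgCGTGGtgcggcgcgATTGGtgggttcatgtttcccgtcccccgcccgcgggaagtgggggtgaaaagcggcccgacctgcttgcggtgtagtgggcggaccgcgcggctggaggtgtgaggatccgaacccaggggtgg
HSPA5 has 1 such element, 66 to 48 bases before its start, and HSP90B1 has 2, on opposite strands. Of all 27305 genes with a window, 25 hold the element (0.0916%). Of the 18 chaperone genes with a window, 7 do (38.9%), namely CALR, CANX, CRELD2, ERO1B, HSP90B1, HSPA5 and PDIA6. A match describes the letters of the window, and binding was not measured.

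Genes of ER-associated degradation and of UPR signalling were mostly lower as well. Of 16 genes of ER-associated degradation, 2 rose, 12 fell and 2 did not pass (median -0.75). Against high glucose, 9 rose and 0 fell with 2-DG (median 0.31), and 12 rose and 2 fell with deprivation (median 0.96). HERPUD1, a membrane component of the degradation complex, fell by 2.26 ± 0.06 and the ubiquitin ligase gene SYVN1 by 1.42 ± 0.06 on the log2 scale. NPLOC4 and UFD1, the partners of p97 that extract proteins from the membrane, rose (0.34 ± 0.06 and 0.27 ± 0.09). Without 2-DG control 2 only 1 gene of the list rose, and without both libraries that stand apart 4 did. Of 32 genes for ER import and ER-Golgi transport, 4 rose, 16 fell and 12 did not pass (median -0.23). Against high glucose, 25 rose and 0 fell with 2-DG (median 0.50), and 25 rose and 1 fell with deprivation (median 0.71). The KDEL receptor genes KDELR1, KDELR2 and KDELR3, which return chaperones to the ER, were at 0.01 ± 0.08, 0.08 ± 0.09 and 0.18 ± 0.08, and none of them passed.

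Of 13 UPR sensors and transcription factors, 0 rose, 12 fell and 1 did not pass (median -0.79). Against high glucose, 3 rose and 1 fell with 2-DG (median 0.14), and 11 rose and 0 fell with deprivation (median 1.08). XBP1, the factor that IRE1 activates by splicing, had 137, 151 and 138 CPM with 2-DG, 295, 289 and 294 CPM with deprivation and 72.3, 71.9 and 76.6 CPM in high glucose (-1.04 ± 0.06, adjusted p = 8.5e-10). The 3 groups do not overlap. DDIT3, which encodes the pro-apoptotic factor CHOP, had 11.2, 17.6 and 12.2 CPM with 2-DG, 249, 266 and 254 CPM with deprivation and 10.1, 9.81 and 11.0 CPM in high glucose (-4.23 ± 0.22, adjusted p = 1.3e-10). Its change with 2-DG against high glucose was 0.40 ± 0.22 (adjusted p = 0.27) and did not pass. The exons of DDIT3 share 31.6% of their bases with other genes on the opposite strand and 8.03% on the same strand. ATF3, a stress-induced repressor, had 18.6, 20.8 and 18.8 CPM with 2-DG, 168, 173 and 172 CPM with deprivation and 24.5, 25.7 and 24.5 CPM in high glucose. It was lower with 2-DG than in both other media, by -3.14 ± 0.06 (adjusted p = 1.0e-15) against deprivation and -0.36 ± 0.06 (adjusted p = 3.4e-04) against high glucose. ATF4, the ISR factor regulated mainly at translation, had 299, 367 and 311 CPM with 2-DG and 555, 568 and 561 CPM with deprivation (-0.79 ± 0.10, adjusted p = 3.0e-06). ERN1, the gene of IRE1, was at -1.87 ± 0.16 and EIF2AK3, the gene of PERK, at -0.75 ± 0.11. XBP1 splicing and protein levels were not measured.

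**Figure D3:**
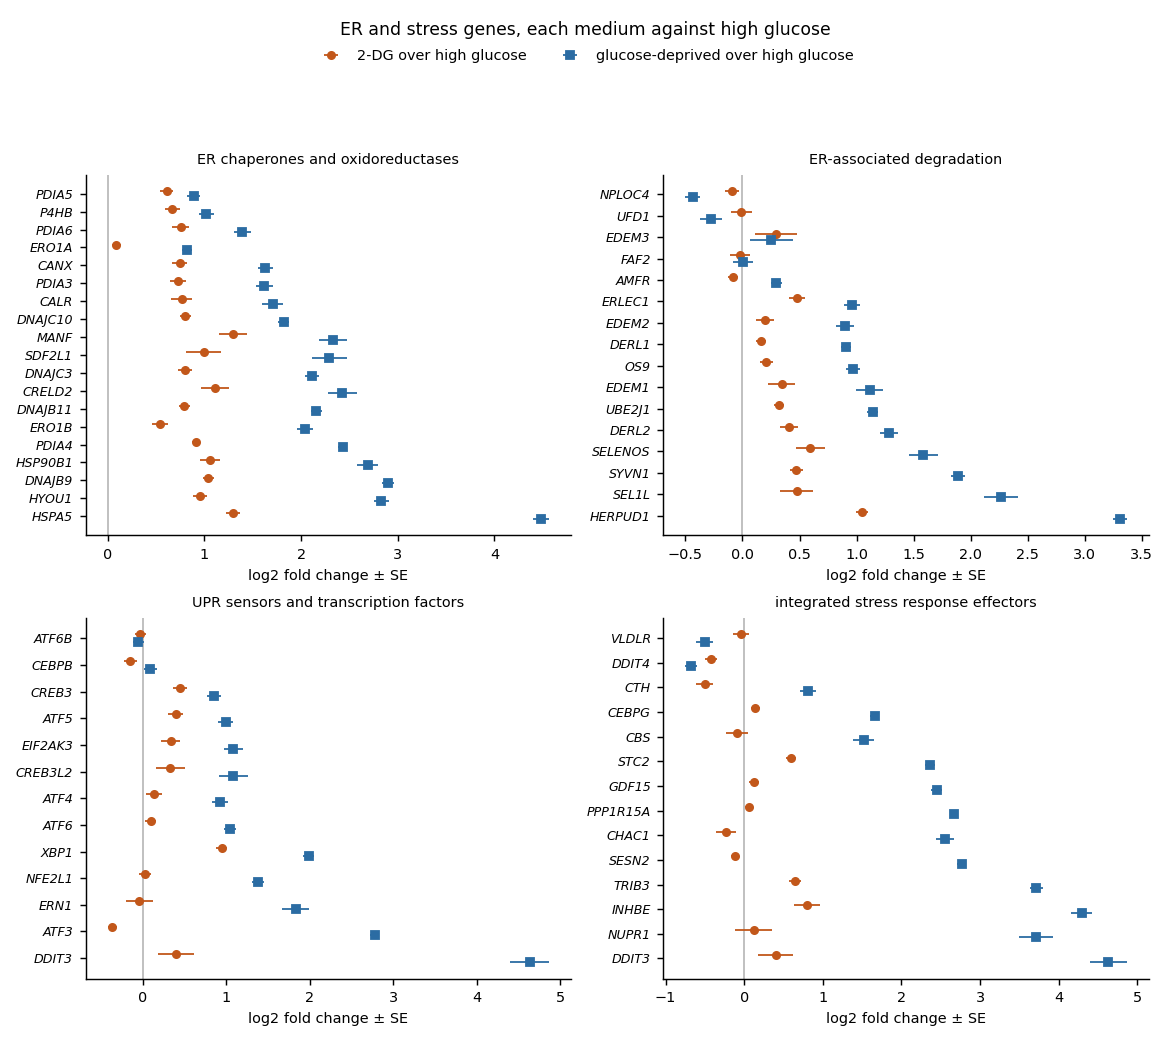
Log2 fold change ± SE (x axis) of each tested gene (y axis) of 4 lists of ER and stress genes, for 2-DG over high glucose (circles) and glucose-deprived over high glucose (squares), without CGRP. HSPA5 lies at 1.30 and 4.48, and DDIT3 at 0.40 and 4.63. Both comparisons share the high-glucose libraries.

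Most effectors of the integrated stress response were far lower with 2-DG than with deprivation. Of 14 effectors, 2 rose, 12 fell and 0 did not pass (median -2.47), and all 12 that fell did so at least 2-fold. Lists can share genes: DDIT3 is in this list and in that of UPR factors, so the list counts are not independent. Against high glucose, 3 rose and 2 fell with 2-DG (median 0.09), and 12 rose and 2 fell with deprivation (median 2.50). TRIB3, a pseudokinase that restrains AKT and ATF4 (ENSG00000101255), had 55.8, 65.3 and 56.5 CPM with 2-DG, 495, 499 and 499 CPM with deprivation and 37.1, 38.5 and 37.9 CPM in high glucose. It was above high glucose in every 2-DG library (0.65 ± 0.08, adjusted p = 5.0e-05) and far below every deprived library (-3.07 ± 0.08, adjusted p = 5.3e-14). SESN2, an inhibitor of mTORC1, was at -2.88 ± 0.06. PPP1R15A, which restores translation, was at -2.62 ± 0.05, and GDF15, a secreted stress cytokine, at -2.32 ± 0.07. Against high glucose these 3 genes were at -0.12 ± 0.05, 0.06 ± 0.05 and 0.13 ± 0.06 with 2-DG, none of which passed. The members that rose were VLDLR, a lipoprotein receptor (0.46 ± 0.11), and DDIT4, an mTORC1 inhibitor (0.25 ± 0.07).

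The promoter of CHAC1, a glutathione-degrading enzyme of this list (-2.79 ± 0.12), is shown as an example with TTGCATCA, a spelling of the amino acid response element that ATF4 binds. The window has the same borders (GRCh38.p14, chr15:40953221-40953520, plus strand), and capitals mark the motif.
CHAC1: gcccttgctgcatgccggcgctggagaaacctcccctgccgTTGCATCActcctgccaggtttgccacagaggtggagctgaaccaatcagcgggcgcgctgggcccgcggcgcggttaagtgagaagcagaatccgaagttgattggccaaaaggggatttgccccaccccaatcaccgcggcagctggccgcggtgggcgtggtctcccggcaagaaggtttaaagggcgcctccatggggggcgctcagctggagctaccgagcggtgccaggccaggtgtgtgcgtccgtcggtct
TTGCATCA was searched on both strands and stands in the windows of 295 of 27305 genes (1.08%). In the ISR list it stands in 3 of 13 genes with a window, CEBPG, CHAC1 and FGF21, of which FGF21 had too few counts to be tested. In the list of serine and asparagine synthesis 1 of 8 genes with a window holds it, MTHFD1L. The windows of ASNS and PSAT1 in the table hold no exact match.

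Amino acid supply genes were mostly lower with 2-DG. All 11 amino acid transporters fell with 2-DG relative to deprivation (median -1.10). Against high glucose, 2 rose and 0 fell with 2-DG (median 0.24), and 11 rose and 0 fell with deprivation (median 1.47). The neutral amino acid carrier SLC1A4 (-1.74 ± 0.07), the glycine carrier SLC6A9 (-1.99 ± 0.09), the glutamine carriers SLC1A5 (-0.79 ± 0.04) and SLC38A2 (-1.75 ± 0.11) had the smallest p. Of 12 genes of serine, one-carbon and asparagine synthesis, 3 rose, 9 fell and 0 did not pass (median -0.80). Against high glucose, 6 rose and 0 fell with 2-DG (median 0.27), and 9 rose and 2 fell with deprivation (median 0.97). Mitochondrial MTHFD2 fell (-0.97 ± 0.05), and its cytosolic counterpart MTHFD1 rose (0.89 ± 0.05). PSAT1, the aminotransferase of serine synthesis, had 409, 439.6 and 411 CPM with 2-DG, 532, 519 and 515 CPM with deprivation and 334, 341 and 338 CPM in high glucose. Its 3 groups do not overlap, and the difference was small (-0.31 ± 0.05, adjusted p = 5.0e-05). ASNS, asparagine synthetase, had 1.29, 0.924 and 1.58 CPM with 2-DG and 4.87, 3.86 and 4.79 CPM with deprivation (-1.83 ± 0.24, adjusted p = 5.5e-06), and 44.6% of its exon bases are shared with another gene on the same strand, so its counts are uncertain. Of 20 cytosolic aminoacyl-tRNA synthetases, which charge tRNAs, 3 rose, 14 fell and 3 did not pass (median -0.42), led by WARS1 (-1.88 ± 0.04), GARS1 (-1.32 ± 0.05) and AARS1 (-1.24 ± 0.06).

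Most genes of sterol and fatty acid synthesis were higher with 2-DG than with deprivation. Of 24 genes for cholesterol synthesis and uptake, 21 rose, 1 fell and 2 did not pass (median 1.21). Against high glucose, 1 rose and 3 fell with 2-DG (median 0.05), and 0 rose and 21 fell with deprivation (median -1.20). HMGCS1, an early enzyme of the mevalonate pathway, had 202, 202 and 203 CPM with 2-DG, 59.0, 57.5 and 57.1 CPM with deprivation and 238, 262 and 238 CPM in high glucose (1.81 ± 0.07, adjusted p = 1.7e-12). HMGCS1 was a little lower with 2-DG than in high glucose in every library (-0.28 ± 0.06, adjusted p = 0.0076). INSIG1, the sterol-regulated retention factor of SREBP, rose by 2.69 ± 0.06, and the synthesis enzymes SQLE by 1.59 ± 0.04 and MSMO1 by 1.68 ± 0.05. TM7SF2, a sterol reductase, fell (-0.35 ± 0.12), a call lost without 2-DG control 1 or 3 or deprived control 1. Of 11 genes of fatty acid synthesis, 10 rose, 1 fell and 0 did not pass (median 0.68). FASN, fatty acid synthase, had 338, 246 and 312 CPM with 2-DG, 98.9, 94.0 and 94.0 CPM with deprivation and 324, 327 and 324 CPM in high glucose (1.64 ± 0.14, adjusted p = 6.3e-08), and its lowest 2-DG value was that of the library that stands apart. ABCG1, which exports cholesterol and is a target of the oxysterol receptors LXR, went the other way, with 1.08, 1.20 and 1.55 CPM with 2-DG, 19.0, 19.5 and 21.8 CPM with deprivation and 2.27, 1.68 and 2.46 CPM in high glucose (-3.98 ± 0.15, adjusted p = 2.7e-12).

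Genes of cell division were far higher with 2-DG than with deprivation. Of 20 genes of mitosis and G2/M, all 20 rose (median 1.63), 19 of them at least 2-fold. Against high glucose, 0 rose and 13 fell with 2-DG (median -0.32), and 0 rose and 20 fell with deprivation (median -1.94). KIF20A, a motor of cytokinesis, rose by 2.15 ± 0.05 (adjusted p = 2.4e-14), the cyclin gene CCNA2 by 1.82 ± 0.05, the mitotic kinase gene PLK1 by 1.68 ± 0.05 and the motor KIF23 by 1.36 ± 0.04. MKI67, the proliferation antigen Ki-67, had 500.4, 322 and 471 CPM with 2-DG, 116, 122 and 117 CPM with deprivation and 579, 617 and 568 CPM in high glucose (1.87 ± 0.23, adjusted p = 3.8e-06). The 2-DG library at the lowest value is the one that stands apart, and it still lies above every deprived library. Of 21 genes of DNA replication and G1/S, 20 rose, 1 fell and 0 did not pass (median 1.20). Against high glucose, 7 rose and 0 fell with 2-DG (median 0.11), and 1 rose and 20 fell with deprivation (median -1.10). The helicase subunits MCM6 (2.05 ± 0.05) and MCM3 (1.37 ± 0.05) and RRM2, a subunit of ribonucleotide reductase (2.28 ± 0.06), rose, and CDC6, a loader of that helicase, fell (-0.48 ± 0.05). With 2-DG, 13 mitotic genes were thus below high glucose while 0 replication genes were, and whether these lists differ was not tested.

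Of 13 genes of D-type cyclins, CDK inhibitors and growth arrest, 3 rose, 7 fell and 3 did not pass (median -0.19). CDKN1A, the CDK inhibitor p21, had 33.8, 34.1 and 33.6 CPM with 2-DG, 66.3, 69.5 and 70.6 CPM with deprivation and 43.9, 42.0 and 43.1 CPM in high glucose. The 3 groups do not overlap, and p21 was lowest with 2-DG (-1.02 ± 0.04, adjusted p = 7.0e-12). CCND3, cyclin D3, rose (1.71 ± 0.08), and the growth arrest genes GADD45A (-1.59 ± 0.10) and GADD45B (-1.42 ± 0.09) fell.

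**Figure D4:**
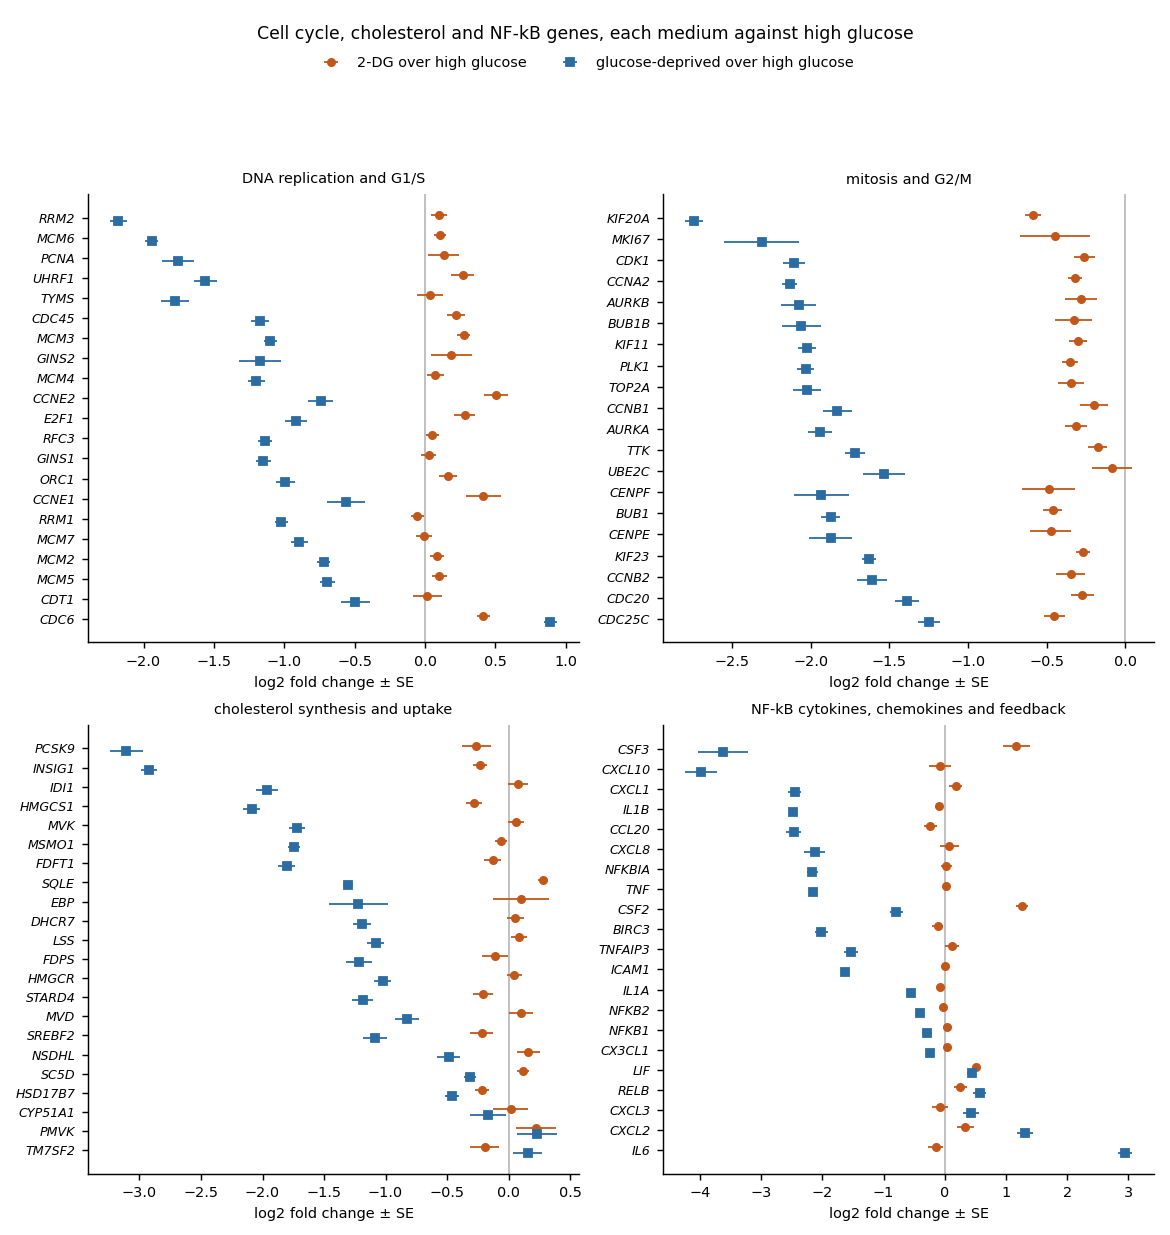
Log2 fold change ± SE (x axis) of the tested genes (y axis), apart from 2 cholesterol genes not shown, of the lists for DNA replication, mitosis, cholesterol and NF-kB, for 2-DG over high glucose (circles) and glucose-deprived over high glucose (squares), without CGRP. The mitotic genes lie between -0.59 and -0.09 with 2-DG and between -2.74 and -1.25 with deprivation. Both comparisons share the high-glucose libraries.

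Inflammatory genes moved in both directions. Of 21 NF-kB cytokines, chemokines and feedback genes, 16 rose, 4 fell and 1 did not pass (median 1.65). Against high glucose, 3 rose and 0 fell with 2-DG (median 0.03), and 5 rose and 16 fell with deprivation (median -1.53). CCL2, the chemokine that draws monocytes, had 1478, 1797 and 1510.1 CPM with 2-DG, 105, 39.2 and 68.7 CPM with deprivation and 1529, 1566 and 1502 CPM in high glucose (4.49 ± 0.24, adjusted p = 1.7e-10). The 2-DG and high-glucose libraries of CCL2 overlapped, and the deprived libraries spread widely far below them. CXCL8, the neutrophil chemokine IL-8, had 298, 304 and 287 CPM with 2-DG, 87.2, 46.5 and 60.1 CPM with deprivation and 285, 283 and 276 CPM in high glucose (2.20 ± 0.17, adjusted p = 1.3e-08). IL1B (2.40 ± 0.06), TNF (2.18 ± 0.06) and ICAM1, an adhesion receptor of leukocytes (1.63 ± 0.05), also rose. IL1A, the related alarm cytokine, had 447, 444 and 443 CPM with 2-DG and 321, 320.1 and 315 CPM with deprivation, a smaller rise of 0.48 ± 0.04 (adjusted p = 5.4e-08). IL6 went the other way, with 4.03, 4.59 and 4.94 CPM with 2-DG, 41.0, 37.4 and 37.4 CPM with deprivation and 4.81, 5.11 and 5.12 CPM in high glucose (-3.10 ± 0.12, adjusted p = 1.9e-12). CXCL2 (-0.97 ± 0.13), CXCL3 (-0.50 ± 0.13) and the NF-kB subunit RELB (-0.32 ± 0.11) fell as well, and CXCL1, CXCL2 and CXCL3 are close paralogs whose reads the counting could have split. TSLP, an epithelial cytokine of type 2 immunity, had 1.57, 2.02 and 2.11 CPM with 2-DG, 28.7, 25.6 and 27.2 CPM with deprivation and 1.97, 1.59 and 1.62 CPM in high glucose (-3.84 ± 0.15, adjusted p = 3.5e-12).

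Of 20 interferon-stimulated genes, 16 rose, 1 fell and 3 did not pass (median 1.24), 12 of the rises at least 2-fold. Against high glucose, 4 rose and 2 fell with 2-DG (median 0.05), and 0 rose and 17 fell with deprivation (median -1.07). The antiviral genes IFIT3 (2.16 ± 0.05), IFIT2 (1.86 ± 0.05), OAS1 (2.02 ± 0.07) and IFI44 (1.65 ± 0.06) had the smallest p. IRF7, a factor of type I interferon induction, fell (-0.60 ± 0.12). IDO1, the interferon-induced enzyme that breaks down tryptophan, had 2.00, 1.85 and 1.98 CPM with 2-DG, 0.165, 0.0345 and 0.0340 CPM with deprivation and 3.07, 1.97 and 3.30 CPM in high glucose (4.55 ± 0.36, adjusted p = 1.5e-08).

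Growth factor signalling genes split by gene. AREG, a ligand of the EGF receptor (ENSG00000109321), had 15.2, 18.2 and 14.7 CPM with 2-DG, 196, 190.0 and 180.3 CPM with deprivation and 14.6, 15.9 and 16.8 CPM in high glucose (-3.56 ± 0.14, adjusted p = 2.3e-12). Of the 8 tested ligands and receptors, 2 rose, 4 fell and 2 did not pass. EGFR itself fell (-1.94 ± 0.22), and the ligand HBEGF rose (0.73 ± 0.08). Of 10 feedback genes of the ERK pathway, 2 rose, 3 fell and 5 did not pass (median -0.14). Against high glucose, 7 rose and 0 fell with 2-DG (median 0.41), and 5 rose and 0 fell with deprivation (median 0.35). DUSP6, a phosphatase that dampens ERK, had 51.6, 47.9 and 51.3 CPM with 2-DG, 29.1, 25.3 and 26.8 CPM with deprivation and 22.5, 26.4 and 24.8 CPM in high glucose. It rose against deprivation (0.89 ± 0.08, adjusted p = 1.0e-07) and against high glucose (1.03 ± 0.08, adjusted p = 5.9e-07), while deprivation against high glucose gave 0.14 ± 0.08 (adjusted p = 0.16). A gene known only by a clone name overlaps 40.5% of its exon bases on the opposite strand. DUSP5 (-1.20 ± 0.06), PHLDA1 (-0.93 ± 0.05) and ETV5 (-0.94 ± 0.06) fell. Without 2-DG control 1 only 1 gene of the list rose. Of 15 AP-1 and immediate early genes, 7 rose, 5 fell and 3 did not pass (median 0.06), with FOS at 2.01 ± 0.21 and JUNB at 0.90 ± 0.06 among the rises and JUN at -0.55 ± 0.05 and MAFF at -0.87 ± 0.06 among the falls.

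Most genes of the antioxidant response and of autophagy were lower with 2-DG than with deprivation. Of 15 targets of NRF2, the factor of the antioxidant response, 3 rose, 10 fell and 2 did not pass (median -0.66). Against high glucose, 0 rose and 0 fell with 2-DG (median 0.08), and 12 rose and 3 fell with deprivation (median 1.01). HMOX1, heme oxygenase, was at -2.41 ± 0.09, OSGIN1 at -2.05 ± 0.08 and GCLC, which starts glutathione synthesis, at -1.78 ± 0.08. NQO1, a quinone reductase, had 122, 153 and 126 CPM with 2-DG and 136, 135 and 135 CPM with deprivation, and the difference of -0.02 ± 0.09 (adjusted p = 0.88) did not pass. Without both libraries that stand apart NQO1 passed, at -0.10 against deprivation (adjusted p = 0.011) and 0.10 against high glucose (adjusted p = 0.035). Of 26 autophagy genes, 1 rose, 15 fell and 10 did not pass (median -0.37). SQSTM1, the autophagy receptor p62, had 789, 903 and 797 CPM with 2-DG, 2197, 2161 and 2249 CPM with deprivation and 620.4, 615 and 632 CPM in high glucose (-1.41 ± 0.07, adjusted p = 4.3e-11). WIPI1 (-2.32 ± 0.06) and MAP1LC3B (-2.26 ± 0.08), which act in autophagosome formation, fell more. The autophagy genes that rose were 2 without both libraries that stand apart. Of 23 regulators of AMPK and mTORC1, 4 rose, 10 fell and 9 did not pass (median -0.13), with the AMPK subunits PRKAB1 (-0.94 ± 0.06) and PRKAB2 (-1.18 ± 0.09) and FLCN (-0.97 ± 0.06) among those that fell.

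Keratinocyte genes moved both ways. Of 17 tested genes of differentiation and the cornified envelope, 8 rose, 4 fell and 5 did not pass, and 5 more of the list had too few counts to test. KRT13, a keratin of mucosal epithelium, had 2.95, 3.73 and 3.30 CPM with 2-DG, 0.428, 0.310 and 0.306 CPM with deprivation and 4.21, 2.95 and 4.24 CPM in high glucose (3.23 ± 0.24, adjusted p = 8.8e-09). The calprotectin subunit S100A9 rose (2.13 ± 0.17), and the protease gene KLK7 fell (-2.37 ± 0.21). SPRR1B had 5.10, 7.25 and 4.85 CPM with 2-DG and 5.99, 4.21 and 4.90 CPM with deprivation, groups that overlap, and did not pass (0.18 ± 0.18, adjusted p = 0.4). IVL, involucrin, lay under 1 CPM in all 9 libraries and did not pass (0.62 ± 0.34, adjusted p = 0.14). Of 11 basal and hemidesmosome genes, 3 rose, 6 fell and 2 did not pass: the keratins KRT5 (1.71 ± 0.06), KRT14 (1.78 ± 0.12) and KRT15 (2.23 ± 0.11) rose, and the laminin chain LAMB3 (-0.98 ± 0.05), the collagen COL17A1 (-0.57 ± 0.08) and the factor TP63 (-0.65 ± 0.09) were among those that fell. Without both libraries that stand apart 5 genes of this list rose. Against high glucose TP63 was at -0.56 ± 0.09 with 2-DG, and with deprivation it was at 0.09 ± 0.09 and did not pass.

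Respiratory chain genes rose in part, and few ribosomal protein genes passed. Of 13 mitochondrially encoded genes, 8 rose, 1 fell and 4 did not pass (median 0.37), and their summed level was 37875 to 41110.0 CPM with 2-DG, 31904 to 32251 CPM with deprivation and 36828 to 38064 CPM in high glucose. MT-CO3 rose by 1.29 ± 0.13, and MT-ND1 fell (-0.28 ± 0.06). Of 29 nuclear subunits of oxidative phosphorylation, 10 rose, 0 fell and 19 did not pass (median 0.30), with UQCRC2 (0.34 ± 0.05) and ATP5F1A (0.49 ± 0.09) first. Without both libraries that stand apart 16 rose and 3 fell, and with scaling by total counts 18 rose. Of 36 cytosolic ribosomal proteins, 0 rose, 4 fell and 32 did not pass (median -0.18). The number of these genes that fell depended on the setting. It was 12 without 2-DG control 2, 13 with a transcript length offset and 34 without both libraries that stand apart. These genes have many processed copies, so reads can be shared between them.

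Many of the 10 largest rises were in genes with few counts under deprivation. RAB7B, a late endosome GTPase, had 2.40, 3.66 and 3.13 CPM with 2-DG and 2.40, 2.48 and 2.49 CPM in high glucose, and its 3 deprived libraries held 2 counts together, against 280 in the 2-DG libraries. The ratio was 135 (95% exact counting interval 37.0 to 1119.9, counting error only). METTL7A, a methyltransferase of lipid droplets, had 1.72, 2.05 and 2.14 CPM with 2-DG and 0.0329, 0 and 0.102 CPM with deprivation (5.33 ± 0.40, adjusted p = 1.0e-08). MAP2K6, a kinase of the p38 pathway, had 2.15, 1.92 and 2.57 CPM with 2-DG and 0.0659, 0.0345 and 0.102 CPM with deprivation (4.95 ± 0.35, adjusted p = 4.9e-09). CP, the copper protein ceruloplasmin, CD34, a sialomucin of progenitor cells, ZBED2, a transcription factor of keratinocytes, and MIR3142HG, the host transcript of miR-146a, rose by 4.95 ± 0.60, 4.85 ± 0.37, 4.39 ± 0.10 and 4.37 ± 0.10. For all of these the 2-DG change against high glucose did not pass.

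Many of the 10 largest falls were in genes that were low with 2-DG and in high glucose. RAB39B, a neuronal RAB GTPase, had 0.0615, 0.103 and 0.0330 CPM with 2-DG, 11.0, 9.86 and 10.3 CPM with deprivation and 0.0334, 0.0318 and 0.0673 CPM in high glucose (-7.23 ± 0.25, adjusted p = 7.7e-13). SCN9A, the sodium channel NaV1.7 of pain-sensing neurons, had 1.05, 0.445 and 0.626 CPM with 2-DG, 24.1, 23.0 and 23.0 CPM with deprivation and 0.601, 0.476 and 0.841 CPM in high glucose (-5.02 ± 0.21, adjusted p = 8.5e-12). LURAP1L had 4.67, 4.28 and 5.34 CPM with 2-DG, 107, 110.1 and 109.7 CPM with deprivation and 3.57, 3.46 and 4.17 CPM in high glucose (-4.51 ± 0.09, adjusted p = 4.2e-15). The receptor CMKLR2 (-5.98 ± 0.21), the adhesion molecule FLRT1 (-4.18 ± 0.15), the endogenous retroviral gene ERVE-1 (-5.01 ± 0.32), and FIBIN (-4.06 ± 0.15) fell too, and DDIT3 and ABCG1 belong to the same 10. RPLP0P2 (-4.80 ± 0.28), also among them, is a pseudogene of RPLP0, so its counts are uncertain. Named for a change with deprivation and little with 2-DG, but outside the 10 largest, were RUBCNL, a regulator of autophagosome maturation (-3.65 ± 0.14), and L3MBTL2-AS1 (-3.95 ± 0.09), which is antisense to L3MBTL2 and so uncertain in its counts.

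Besides TXNIP, ARRDC4, ABCG1 and ATF3, 6 genes were named because they passed in opposite directions against high glucose. CDKN1A, described above, passed in opposite directions as well, at -0.35 ± 0.04 with 2-DG and 0.68 ± 0.04 with deprivation. RFX7, a transcription factor that p53 activates, had 22.8, 17.0 and 23.8 CPM with 2-DG, 2.14, 1.59 and 1.87 CPM with deprivation and 14.6, 16.4 and 15.04 CPM in high glucose (3.50 ± 0.19, adjusted p = 1.2e-10). NEFM, a neurofilament subunit, had 8.58, 9.17 and 7.58 CPM with 2-DG, 0.889, 0.896 and 0.986 CPM with deprivation and 6.98, 6.45 and 6.29 CPM in high glucose (3.19 ± 0.13, adjusted p = 5.3e-12). The exons of NEFM share 38.9% of their bases with a gene on the opposite strand, so its counts are uncertain. KLF15, a metabolic zinc finger factor, had 1.08, 0.924 and 0.857 CPM with 2-DG, 11.1, 11.3 and 12.3 CPM with deprivation and 1.47, 1.43 and 1.41 CPM in high glucose (-3.59 ± 0.10, adjusted p = 4.8e-14). TLCD2, a membrane lipid regulator (-2.93 ± 0.11), and BCDIN3D-AS1 (-2.95 ± 0.12) fell, and the T cell receptor segment TRAV8-1, whose reads in a carcinoma line are of uncertain origin, rose (3.21 ± 0.11). For RFX7, NEFM, KLF15 and ABCG1 the change with 2-DG against high glucose was close to the threshold (adjusted p = 0.045, 0.023, 0.027 and 0.014). All 4 of these calls were lost in a fit of only the groups compared and without some single libraries.

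The genes named for a change with 2-DG and little with deprivation were, beside DUSP6, EEF1AKMT4, RND1 and KCTD13-DT. RND1, a small GTP-binding protein that loosens adhesion, had 1.60, 1.03 and 1.52 CPM with 2-DG, 3.66, 3.00 and 2.69 CPM with deprivation and 2.80, 2.79 and 2.86 CPM in high glucose (-1.17 ± 0.15, adjusted p = 6.8e-06). KCTD13-DT, a transcript divergent from KCTD13, had 1.63, 1.13 and 1.19 CPM with 2-DG, 2.90, 2.79 and 3.03 CPM with deprivation and 2.67, 3.33 and 2.79 CPM in high glucose (-1.13 ± 0.23, adjusted p = 4.4e-04). EEF1AKMT4, a lysine methyltransferase of the elongation factor eEF1A, had 3.23, 6.06 and 3.53 CPM with 2-DG and 2.34, 1.96 and 2.58 CPM with deprivation (0.89 ± 0.28, adjusted p = 0.012). Its highest value was in the library that stands apart, and without that library the adjusted p was 0.076. The exons of EEF1AKMT4 share 26.3% of their bases with other genes on the same strand, so its counts are uncertain.

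The same media were also compared in 6 libraries with CGRP, which share no library with the comparison. There 5209 genes were higher (28.7%) and 5716 lower (31.5%) with 2-DG than with deprivation. Across the 18159 genes the log2 fold changes of both sets correlated (r = 0.887, Spearman rho = 0.859), a description across genes that share the same cells, reads of the same depth and the same annotation. Of the 5256 genes higher without CGRP, 4267 were called higher with CGRP and 20 lower. Of the 5191 lower genes, 4324 were called lower and 20 higher. Among the 1994 genes at least 2-fold higher, 1762 were called higher and 0 lower.

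Several large gene lists had like counts in the CGRP libraries, and others did not. ER chaperones had 19 of 19 lower (median -1.84), ISR effectors 12 of 14 lower (median -2.74), mitotic genes 20 of 20 higher (median 2.07), and cholesterol genes 22 of 24 higher (median 1.36). NF-kB genes had 17 higher and 4 lower, and interferon-stimulated genes 17 higher and 1 lower. Ribosomal proteins had 32 of 36 lower with CGRP and 4 without it. The count without CGRP was 34 when both libraries that stand apart were left out. Metalloproteinase genes had 3 higher and 2 lower (median 0.02, against 0.62 without CGRP), pentose phosphate genes 0 higher and 2 lower, and AP-1 genes 6 higher and 7 lower (median -0.45). Whether these lists differ with CGRP was not tested. The media difference itself differed with CGRP for 702 genes (3.87%, interaction term of the same model), a count that was 3220 without both libraries that stand apart. IL6 was among them, at -3.10 without and -1.59 with CGRP.

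**Figure D5:**
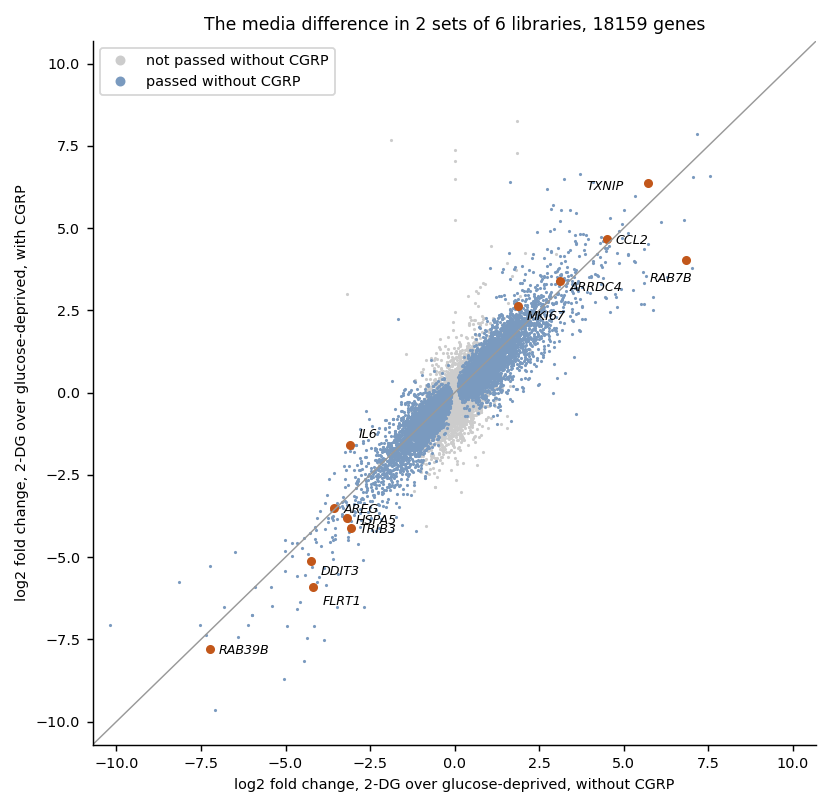
Log2 fold change of 2-DG over glucose-deprived in the 6 libraries without CGRP (x axis) and in the 6 with CGRP (y axis), 1 point for each of 18159 genes, with the line of equal values. TXNIP lies at 5.71 and 6.38, HSPA5 at -3.18 and -3.81, and IL6 off the line at -3.10 and -1.59.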

How the data were processed

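Total RNA extracted with Trizol was sequenced on an Illumina platform, per the labels' protocols. The deposited table holds raw counts, 1 per gene and library for 60683 Ensembl IDs, per the file headers. Reads were aligned with HISAT2 2.0.4, per the submitters' processing notes, which list both hg19 and GRCh38 and leave their roles open. The counting program, annotation and strand setting were not given in the sources used here, so paralogs, overlapping genes and antisense genes are uncertain, and no coordinates are given beyond those of RefSeq promoters. Symbols were found for 60370 IDs.

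Genes passing filterByExpr (at least 10 counts, 15 in total) left 18159 of 60683. Counts were scaled by TMM and tested with edgeR 4.0.16 (R 4.3.3, quasi-likelihood F test, robust), fitting the 18 libraries jointly by group (12 residual degrees of freedom, common biological variation 9.44%). Adjustment was by Benjamini-Hochberg over all genes. The test was checked on simulated data. Totals were 28.04M to 32.66M counts, and intervals cover counting error only. CPM are TMM-scaled.

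Alternatives were RLE and total-count scaling, DESeq2 1.42.0, no filter, a stricter filter (a mean over 2 CPM, with 3 libraries above 1 CPM), only the groups compared, a replicate block, each library left out, both libraries that stand apart left out and, chosen after seeing the data, an offset for transcript length (lowess span 0.3, lengths known for 98.6% of genes). The comparison, its 41 gene lists and 6 marker lists were chosen with earlier results of these data known. Named genes were the 10 largest rises and falls with non-overlapping libraries and a mean of at least 1 log2 CPM, genes that moved in opposite directions or in 1 medium against high glucose (at least 1 in 1 medium and under 0.25 in the other, on the log2 scale, 5 each way), 30 set genes and the 4 list members with the smallest adjusted p. Other list members were chosen after their values were seen. Promoter windows came from RefSeq (GRCh38.p14) and motifs were matched by exact letters. A few list members are not reported here. The 3 libraries with CGRP in high glucose served only for the shared fit.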

Additional observations from a re-analysis of the deposited data

Results flagged for a closer look

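For 17 named genes the difference between 2-DG and glucose deprivation was not the same with CGRP as without it. Over all 18159 genes tested this held for 702 (3.87%). Part of the named genes were chosen for a large difference without CGRP, and the effect of that choice on these values was not tested. Each difference below is the log2 fold change of 2-DG over deprived with CGRP minus that without, ± SE, tested as an interaction in the edgeR model with adjustment over all genes. Among stress genes the fall with 2-DG was deeper with CGRP for TRIB3 (-1.03 ± 0.11, -3.07 without and -4.10 with CGRP, adjusted p = 8.2e-05), PSAT1 (-0.96 ± 0.07, -0.31 without and -1.27 with CGRP, adjusted p = 2.5e-06) and HSPA5 (-0.63 ± 0.10, -3.18 without and -3.81 with CGRP, adjusted p = 0.0021). The same held for HSP90B1 (-0.80 ± 0.14, -1.63 without and -2.42 with CGRP, adjusted p = 0.0048), XBP1 (-0.52 ± 0.09, -1.04 without and -1.56 with CGRP, adjusted p = 0.0036), DNAJB9 (-0.38 ± 0.08, -1.85 without and -2.23 with CGRP, adjusted p = 0.013) and SQSTM1 (-0.73 ± 0.10, -1.41 without and -2.14 with CGRP, adjusted p = 4.1e-04). It also held for FLRT1 (-1.73 ± 0.30, -4.18 without and -5.90 with CGRP, adjusted p = 0.0033) and L3MBTL2-AS1 (-0.70 ± 0.13, -3.95 without and -4.66 with CGRP, adjusted p = 0.0051).

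The fall was shallower with CGRP for IL6 (1.504 ± 0.16, -3.10 without and -1.59 with CGRP, adjusted p = 8.8e-05) and ATF3 (0.32 ± 0.08, -3.14 without and -2.82 with CGRP, adjusted p = 0.027). The rise was larger with CGRP for TXNIP (0.66 ± 0.09, 5.71 without and 6.38 with CGRP, adjusted p = 5.6e-04) and HMGCS1 (0.41 ± 0.09, 1.81 without and 2.21 with CGRP, adjusted p = 0.019). It was smaller for DUSP6 (-0.70 ± 0.12, 0.89 without and 0.19 with CGRP, adjusted p = 0.0029), ZBED2 (-0.90 ± 0.14, 4.39 without and 3.50 with CGRP, adjusted p = 0.0018) and TRAV8-1 (-0.61 ± 0.15, 3.21 without and 2.60 with CGRP, adjusted p = 0.03). It was smaller too for RAB7B, at -2.81 ± 0.74 (adjusted p = 0.045), where the deprived control libraries hold 2 counts in all and the fitted values depend on that. In a fit of only the groups compared these differences no longer passed for RAB7B (adjusted p = 0.14), ATF3 (0.12), HMGCS1 (0.099), TRAV8-1 (0.075), DNAJB9 (0.066), HSP90B1 (0.056) and L3MBTL2-AS1 (0.053). That of RAB7B was also lost with the replicate block (0.058), with no low-count filter (0.061) and with DESeq2 (0.072), and those of DNAJB9 and ATF3 with no low-count filter (0.086 and 0.15). That of TRAV8-1 was lost with the transcript length offset (0.12). Leaving out 1 of the 12 libraries ended the call of RAB7B for 10 of them, of TRAV8-1 for 8, of ATF3 for 7 and of HMGCS1 for 2, deprived control 1 and 2-DG CGRP 2.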

How the results depend on the processing

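The count of genes called between 2-DG and deprivation (10447) stayed between 8300 and 12287 under 9 alternatives, and 8026 to 10344 of the called genes were called again. At least 2-fold, 1108 were higher and 672 lower with the stricter filter, which tests 12806 genes. For 2-DG against high glucose (2513), the count was 1499 in a fit of only the groups compared, 6002 without both libraries that stand apart and 3839 with a transcript length offset. For the interaction with CGRP (702), it was 430 with no low-count filter, 209 in a fit of only the groups compared, 3220 without both libraries, 1353 with the length offset and 1081 with DESeq2. The cause was not tested. Leaving out each library in turn gave 9402 to 10029 calls for the comparison (4929 to 5213 higher, 4435 to 4839 lower, at least 2-fold 1967 to 2002 and 1272 to 1434), 1607 to 2098 for 2-DG against high glucose, 10003 to 10091 for deprivation against high glucose, 9959 to 11468 with CGRP and 435 to 1005 for the interaction.

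Labels share replicate numbers, but deviations of same-numbered 2-DG and deprived libraries correlated at -0.024 to -0.012. With CGRP these correlations were -0.180, -0.185 and 0.067. Across all genes no shared positive effect of the number was thus seen, which does not settle whether the cultures were set up in pairs. Single genes can differ from this. CP was lowest in replicate 2 of each medium without CGRP. It had 4.09, 2.05 and 3.59 CPM with 2-DG and 0.132, 0.0345 and 0.136 CPM with deprivation. In high glucose CP had 3.54, 1.75 and 3.26 CPM. With a replicate block the comparison had 10554 calls. Scaling by total counts moved the share of higher calls to 59.6%, where it was 50.3% with TMM, and the median of all genes to 0.090, and no list median changed sign under RLE or total-count scaling. The lysosome list then had 11 higher and 3 lower, ER import 7 higher and dolichol-linked assembly 4 higher. No result reversed under any alternative run. Among named genes the calls of TALDO1, RPL14, RPL4, MT1F and EEF1AKMT4 were lost under some settings. Genes with few counts, such as RAB7B, are limited by depth.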

Other observations

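Genes of cell death moved in both directions. Of 13 tested members of the BCL2 family and death receptors, 6 rose, 4 fell and 3 did not pass (median 0.08). BCL2A1, an NF-kB-induced survival protein, rose with 2-DG relative to deprivation (2.60 ± 0.28), as did the death receptor FAS (1.03 ± 0.06) and the BH3-only protein BID (1.32 ± 0.09). BCL2L1, the gene of BCL-XL (-1.42 ± 0.04), TNFRSF10B, the TRAIL receptor DR5 that CHOP raises (-1.24 ± 0.09), and PMAIP1, the gene of NOXA (-0.67 ± 0.05), fell. Of 13 cytosolic and mitochondrial heat shock proteins, 9 rose, 2 fell and 2 did not pass (median 0.58), with HSP90AA1 at 1.64 ± 0.06 and the co-chaperone BAG3 at 0.99 ± 0.04, so cytosolic HSP90 and its ER form HSP90B1 moved in opposite directions. HSP90AA1 was below high glucose in both media (-0.53 ± 0.06 with 2-DG and -2.18 ± 0.06 with deprivation).

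Of 10 genes of matrix metalloproteinases and plasminogen activation, 6 rose, 1 fell and 3 did not pass (median 0.62). PLAT, tissue plasminogen activator, rose by 3.55 ± 0.17, the collagenase MMP13 by 1.67 ± 0.21 and MMP7 by 2.22 ± 0.34, while MMP1 was at -0.33 ± 0.13 and above high glucose in both media (0.63 ± 0.14 with 2-DG and 0.97 ± 0.14 with deprivation). The call of MMP1 against deprivation was lost under 6 of 9 alternatives, the replicate block, RLE and DESeq2 among them, and without any of the 6 libraries but 2-DG control 2. The CGRP receptor subunits RAMP1 (1.74 ± 0.19) and CALCRL (0.99 ± 0.21) were higher with 2-DG than with deprivation. CALCB, which encodes beta-CGRP, held 2 counts in the 2-DG libraries together and 47 in the deprived ones, a ratio of deprived over 2-DG of 24.4 (95% exact counting interval 6.38 to 207). Of 6 tested metallothionein and zinc export genes, 0 rose, 4 fell and 2 did not pass (median -0.70), with the zinc exporter SLC30A1 at -1.56 ± 0.07 and close paralogs among the metallothioneins.

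Other lists described here by counts alone were the lysosome and TFEB family (6 rose and 6 fell of 20), fatty acid oxidation (2 and 1 of 9), EMT genes (5 and 3 of 13) and the pentose phosphate pathway (3 and 0 of 7). Fatty acid oxidation had 5 higher and 0 lower with total-count scaling, and 3 lower without 2-DG control 2. Pentose phosphate had 5 higher under 6 of 9 alternatives and 1 lower without 2-DG control 2. EMT genes had 8 higher without both libraries that stand apart, and the lysosome list had 3 lower without deprived control 1 or 3. PPARGC1A, a coactivator of oxidative metabolism (1.35 ± 0.26), and TFEB, the master factor of lysosome genes (0.98 ± 0.15), rose in these lists.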
